A study of Mus musculus with 12 samples.

Results

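Ear skin of germ-free mice treated with MC903 was compared with ear skin of specific-pathogen-free (SPF) mice treated with the same compound. The comparison rests on 6 of the 12 RNA libraries of the series, namely germ-free libraries 1, 4 and 5 and SPF libraries 1, 2 and 3, and it covers every gene in the deposited table. Of 24532 genes listed, 16466 had enough counts to be tested, 8066 did not, and 4221 of the latter were at 0 in all 12 libraries. MC903, also known as calcipotriol, is a vitamin D analogue, and painting it on mouse skin is a common model of atopic dermatitis. The other 6 libraries came from ears given only ethanol, the solvent, in the same housings, and are used here as the background. Germ-free animals carry no microbes, while SPF animals carry a normal flora free of listed pathogens. According to the treatment note, ethanol or MC903 was given "5 times daily", a wording that leaves the schedule unclear, and no age or sex is given in the labels. The strain is written C57BL/6 in all SPF libraries and germ-free library 1, under both treatments, and in germ-free ethanol library 4, but as C57BL/7 in germ-free MC903 library 4, C57BL/8 in germ-free ethanol library 5 and C57BL/9 in germ-free MC903 library 5. Housing, and any origin or handling that goes with it, cannot be told apart in this design. The labels do not say whether the 3 libraries of a group came from separate animals, so each p-value below measures the spread between libraries.

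MC903 acts on keratinocytes through the vitamin D receptor, which induces its own catabolic enzyme Cyp24a1 and the epithelial cytokine thymic stromal lymphopoietin, encoded by Tslp. Tslp and the alarmin Il33 act on dendritic cells, innate lymphoid cells, basophils and T cells and favour type 2 inflammation. Keratinocytes meanwhile switch from the ordinary differentiation keratins to the wound keratins and secrete protease inhibitors, antimicrobial peptides and growth factors. Microbes on the skin are sensed by pattern receptors in keratinocytes and leukocytes, and they are known to set the tone of interferon and IL-1 family signalling in the tissue.

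Total counts in the 6 MC903 libraries ran from 36358294 to 48225425. Keratinocyte, fibroblast and endothelial markers were present in all 6, with Krt5 at 1432 to 3254 FPKM (fragments scaled to gene length and library depth), Col1a1 at 196 to 258 FPKM and Pecam1 at 11.7 to 14.6 FPKM. On the leading axis of a principal component analysis of the 6 libraries, with 60.3% of the variance, the SPF libraries scored -40.7 to -29.9 and the germ-free ones 31.3 to 34.6. The next axis, with 13.1%, spread the germ-free libraries from -19.1 to 30.1. In bulk tissue, fewer cells of a type and less RNA per cell cannot be told apart.

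Levels below are CPM, counts scaled to library depth and between libraries, and differences are log2 values of germ-free minus SPF with their standard error (SE), fitted by edgeR's quasi-likelihood test with p-values adjusted over all genes tested. A gene is called at an adjusted p under 0.05. Under MC903, 6871 genes were called, or 41.7% of those tested. Of these, 3431 (20.8% of those tested) were higher and 3440 (20.9%) were lower in germ-free skin. At least a 2-fold difference was seen for 634 genes (3.85%) on the higher side and 631 (3.83%) on the lower side. For 4176 genes (25.4%) every germ-free library lay above every SPF library, and for 4157 (25.2%) every one lay below. The median log2 difference over all genes tested was 0.02. Counts of list members are therefore read beside 20.8% and 20.9%.

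**Figure D1:**
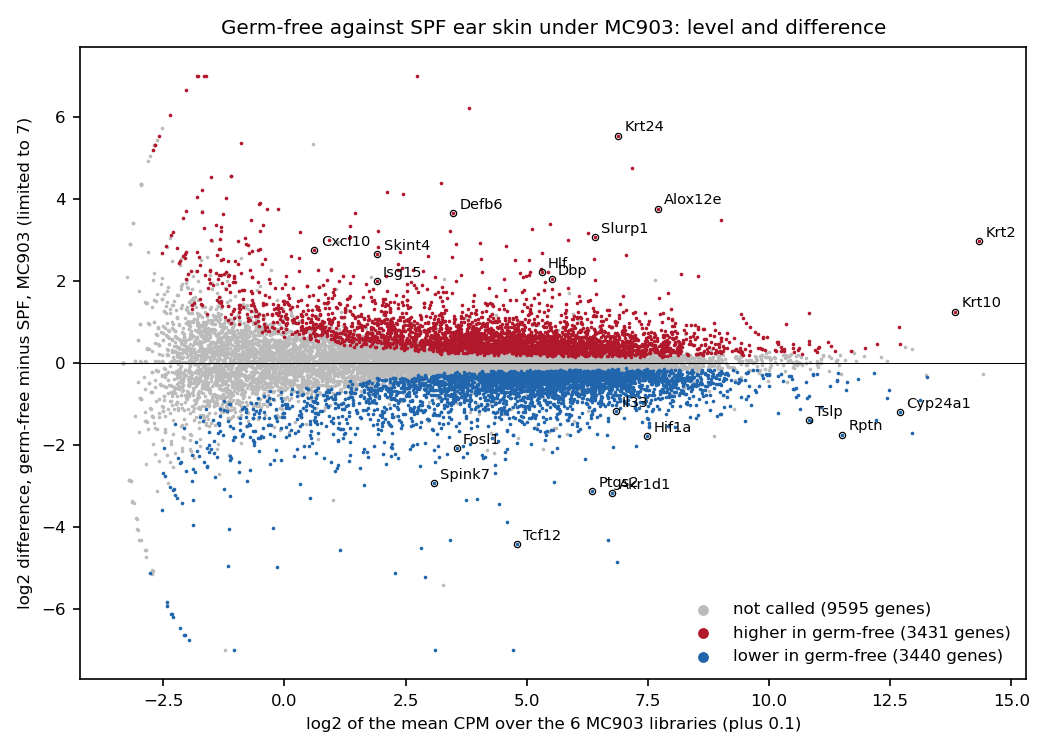
Each point is 1 of the 16466 genes tested, with the log2 of its mean CPM over the 6 MC903 libraries on the x axis and its log2 difference, germ-free minus SPF, on the y axis. Genes called higher in germ-free skin (3431) are red, genes called lower (3440) are blue, and Krt24 and Tcf12 are among the labelled genes farthest from 0.

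The called genes differed by length of the gene model. In the shortest decile of genes, 40.8% were higher and 6.45% lower in germ-free MC903 skin, and in the longest decile 11.5% were higher and 33.3% lower. The ethanol libraries showed the same slope, with 27.1% higher and 1.49% lower among the shortest genes and 1.55% higher and 34.1% lower among the longest. Its part in the results below was not tested as a cause, but every list was also fitted after the trend with length had been removed from each library, and counts of 5 or more that moved by over 1.5 times are given beside the list.

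**Figure D2:**
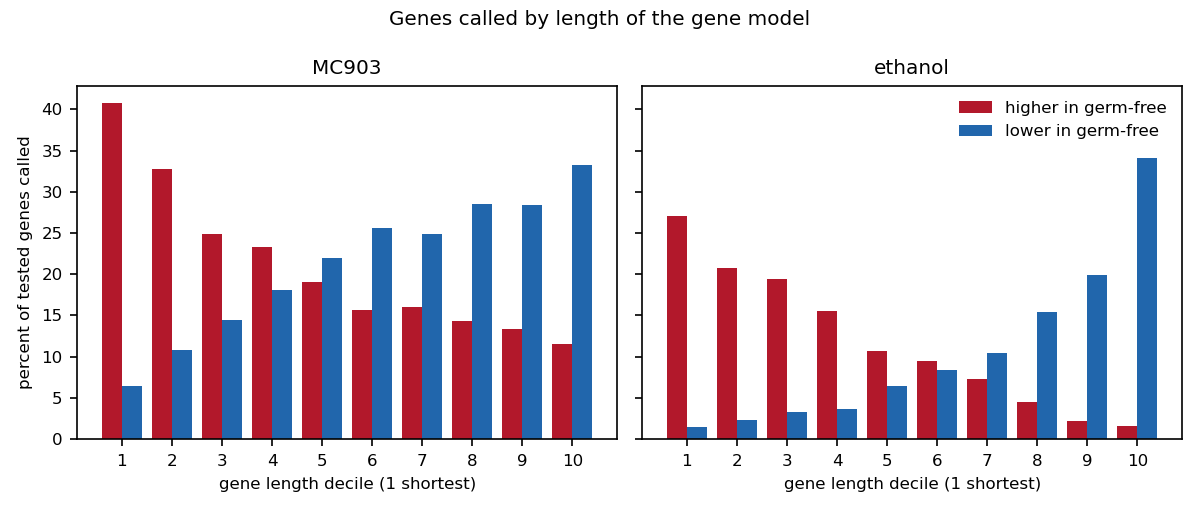
Bars give the percent of tested genes called higher (red) or lower (blue) in germ-free skin in each decile of gene length, from the shortest to the longest, for the MC903 and the ethanol libraries. The red bars fall from 40.8% to 11.5% and the blue bars rise from 6.45% to 33.3% under MC903.

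Promoter sequences are shown first for 3 groups of genes whose members are described below, because each group has a known regulatory motif. In RefSeq promoters (build GRCm38.p6, the 250 bases before the annotated start, both strands), an interferon-response element was searched as GAAA, any 2 bases and GAAA, an antioxidant-response element, which NRF2 binds, as TGACNNNGC, and the clock E-box as CACGTG. Of 12897 tested genes with a promoter sequence, 416 (3.23%) held the first, 1781 (13.8%) the second and 1181 (9.16%) the third. The first was found in 12 of 22 interferon-stimulated genes with a sequence, the second in 6 of 12 NRF2 targets and the third in 5 of 15 clock genes. A match is a description of letters in the window, not a mapped binding site. The windows below, on the strand of the gene, belong to genes whose values follow, and capitals mark 1 match in each, read on the other strand for Ifit1, Txnrd1, Gclm, G6pdx and Prdx1. Prdx1 and Cry1 are shown because they differed in the direction opposite to the other genes shown of their group.
Ifit1, chr19:34640779-34640838, plus strand: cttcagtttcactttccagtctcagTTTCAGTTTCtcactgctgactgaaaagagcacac
Isg15, chr4:156200850-156200909, minus strand: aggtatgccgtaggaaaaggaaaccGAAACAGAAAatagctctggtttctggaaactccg
Cxcl10, chr5:92349068-92349127, minus strand: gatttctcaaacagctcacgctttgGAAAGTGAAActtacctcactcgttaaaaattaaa
Oas3, chr5:120777700-120777759, minus strand: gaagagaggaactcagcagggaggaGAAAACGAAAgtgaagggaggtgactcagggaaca
Txnrd1, chr10:82859089-82859147, plus strand: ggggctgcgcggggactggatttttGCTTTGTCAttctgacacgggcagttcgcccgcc
Gclm, chr3:122245398-122245456, plus strand: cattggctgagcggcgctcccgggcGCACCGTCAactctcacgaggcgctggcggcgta
G6pdx, chrX:74428904-74428962, minus strand: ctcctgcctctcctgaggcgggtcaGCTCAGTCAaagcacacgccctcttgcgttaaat
Prdx1, chr4:116685441-116685499, plus strand: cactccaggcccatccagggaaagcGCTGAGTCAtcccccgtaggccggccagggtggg
Per1, chr11:69098758-69098813, plus strand: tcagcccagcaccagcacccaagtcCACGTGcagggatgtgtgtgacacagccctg
Ciart, chr3:95882314-95882369, minus strand: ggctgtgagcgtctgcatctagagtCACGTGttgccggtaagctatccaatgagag
Tef, chr15:81802521-81802576, plus strand: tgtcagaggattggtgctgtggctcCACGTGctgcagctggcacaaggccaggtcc
Cry1, chr10:85185084-85185139, minus strand: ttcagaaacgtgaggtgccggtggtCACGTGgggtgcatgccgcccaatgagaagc
Some of these genes held further matches, part of them in lower case in the windows above: Ifit1 held 2, Isg15 held 3 that overlap, Ciart held 3, and Tef held 1 in each of 2 promoters.

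Tslp, Il33 and Cyp24a1 were lower in germ-free skin, while most other called genes of the vitamin D list were higher. Tslp stood at 2501, 2776 and 2603 CPM in the SPF libraries and 917, 917 and 1154 CPM in the germ-free libraries, a log2 difference of -1.40 (SE 0.18, adjusted p = 7.4e-05). The groups did not overlap, while with ethanol the means were 2.46 and 2.51 CPM. Il33 was 186, 117 and 171 CPM in SPF and 73.2, 64.8 and 72.2 CPM in germ-free libraries, lower by 2.25-fold (log2 -1.17, SE 0.15). Cyp24a1, the vitamin D catabolic enzyme, was 7778, 9576 and 10517 CPM in SPF and 3764, 3917 and 4551 CPM in germ-free libraries (log2 -1.19, SE 0.32, adjusted p = 0.01). With ethanol Cyp24a1 had a log2 difference of -0.03 (adjusted p = 0.97), but its MC903 and ethanol differences did not differ significantly. Vdr, the receptor, was 63.3 to 69.5 CPM in SPF and 61.2 to 63.1 CPM in germ-free libraries and was not called (log2 -0.12, SE 0.06, adjusted p = 0.11). S100g, a receptor target and calcium-binding protein, went the other way, at 8.29 to 13.2 CPM in SPF and 26.7 to 30.4 CPM in germ-free libraries (log2 1.43). With ethanol S100g had a log2 difference of 2.95 that was not called (adjusted p = 0.093), and its MC903 and ethanol differences did not differ significantly. Of the 10 vitamin D list genes tested, 5 were higher and 1 lower. The higher ones were S100g, Trpv6, Slc34a2, Rxra, which is the receptor's partner, and Cyp27a1, a vitamin D hydroxylase.

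Of 16 type 2 cytokine, alarmin and receptor genes tested, 3 were higher and 2 lower, with a median log2 difference of -0.07. Gata3, a transcription factor of T helper 2 cells, innate lymphoid cells and hair follicle keratinocytes, was 29.2, 23.9 and 19.5 CPM in SPF and 79.7, 81.6 and 71 CPM in germ-free libraries (log2 1.67, SE 0.13). The ethanol means of Gata3 were 97.9 and 117 CPM, so the SPF MC903 group was the low one of the 4. Retnla, a product of alternatively activated macrophages, was 0.4 to 0.823 CPM in SPF and 1.92 to 4.01 CPM in germ-free libraries and was higher with ethanol too. Neither Il4 nor Il13 reached the count minimum: summed over 3 libraries, Il4 had 9 counts in SPF and 13 in germ-free MC903 skin, and Il13 had 25 and 20. Their difference was not detectable at this depth, and Il31 had 0 counts in both MC903 groups.

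The epidermal keratins differed in both directions. Krt24, Krt2, Krt77 and Krt10 were higher in germ-free skin, whereas Krt1, Krt80, Krt6a, Krt6b and Krt17 were lower. Krt24 (chromosome 11, 99279959 to 99285262) stood at 5.49, 4.35 and 5.03 CPM in SPF and 227, 269 and 196 CPM in germ-free libraries. That was a 46.5-fold difference (log2 5.54, SE 0.16, adjusted p = 2.1e-09). With ethanol Krt24 averaged 310 CPM in SPF and 333 CPM in germ-free skin, so the SPF MC903 libraries alone were low. Krt2, a keratin of the upper epidermal layers, was 7255, 2924 and 3969 CPM in SPF and 36880, 41627 and 31771 CPM in germ-free libraries (log2 2.96, SE 0.28). Krt10, the early differentiation keratin, was 10737, 7536 and 7854 CPM in SPF and 20928, 21808 and 19649 CPM in germ-free libraries (log2 1.26, SE 0.14). Its usual partner Krt1 was lower in germ-free skin, with 12991, 12096 and 9845 CPM in SPF and 6028, 5578 and 7031 CPM in germ-free libraries (log2 -0.91, SE 0.13). Krt5, of the basal layer, was 3827 to 5670 CPM in SPF and 8137 to 8826 CPM in germ-free libraries (log2 0.89). Among 12 basal and differentiation keratins, 7 were higher and 2 lower.

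Of 33 wound keratins and stress epidermis genes, 2 were higher and 16 lower in germ-free MC903 skin, with a median log2 difference of -0.62. In ethanol skin, 9 of the same 33 were higher in germ-free mice and none lower, beside 11.6% and 10.3% of all genes. Of the 33, 16 had a significantly lower difference under MC903 than with ethanol, against a background of 9.26%. Krt6a was 12965, 10338 and 12875 CPM in SPF and 3475, 3546 and 4170 CPM in germ-free libraries (log2 -1.69, SE 0.16, adjusted p = 1.1e-05). Krt6b (log2 -1.39) and Krt17 (log2 -0.46) were lower as well. Krt16, another wound keratin, was not called, at 9924 to 12019 CPM in SPF and 8001 to 9228 CPM in germ-free libraries (log2 -0.30, SE 0.37, adjusted p = 0.56). Of the small proline-rich genes, which crosslink into the envelope, Sprr1b was 2787 to 3081 CPM in SPF and 1363 to 1414 CPM in germ-free libraries (log2 -1.08, SE 0.39, adjusted p = 0.043), a call that was lost whenever any 1 of the 6 MC903 libraries was left out, with adjusted p of 0.079 to 0.098. Sprr2, Krt6 and stefin genes have near-identical copies, and how reads were split among them is not known. With the length trend removed, 22 of the 33 were lower and the median was -1.01, and without SPF library 2 or 3 the lower count was 10 of 33. The tools differed here: DESeq2 called 13 higher with ethanol and limma voom 5, both with 0 lower, against 1 lower at an unadjusted p under 0.05 in edgeR, and the lower difference under MC903 was called for 18 by DESeq2 and 9 by limma voom.

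Cornified envelope and corneodesmosome genes, which build and shed the outer layer, were lower in 18 and higher in 4 of 40 tested, with a median of -0.34. Rptn, an envelope protein, was 4058, 3792 and 5631 CPM in SPF and 1327, 1191 and 1504 CPM in germ-free libraries (log2 -1.74, SE 0.19). Tgm3, an envelope crosslinker, was 917, 939 and 1294 CPM in SPF and 392, 345 and 443 CPM in germ-free libraries (log2 -1.42). Spink5, the inhibitor of the shedding proteases, was 2.31-fold lower (log2 -1.21, SE 0.10), and the protease gene Klk8 was lower too (log2 -0.81). Lor, the main envelope protein, was 5030 to 7132 CPM in SPF and 7258 to 9153 CPM in germ-free libraries and was not called (log2 0.39, SE 0.16, adjusted p = 0.069). Ivl was modestly lower (log2 -0.49). Lipid genes of the barrier ran in the same direction: 10 of 20 ceramide synthesis genes were lower and 4 higher, and Abca12, the lipid transporter of lamellar granules, was 169 to 239 CPM in SPF and 94.8 to 96.3 CPM in germ-free libraries (log2 -1.13, SE 0.11). Of 27 sebaceous and sterol synthesis genes, 15 were lower and 8 higher, the higher count being 5 without germ-free library 4 or 5.

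Alox12e, Slurp1, Slurp2, Defb6, Fcgbp, Mt4, Clca3a2 and Pyy were also among the largest differences on the higher side. Alox12e, an epidermal lipoxygenase, was 28.9, 25.5 and 31.2 CPM in SPF and 478, 375 and 308 CPM in germ-free libraries (log2 3.76, SE 0.19, adjusted p = 1.5e-07). Slurp1, a secreted Ly6 protein of the epidermis, was 29.1, 11.1 and 14.2 CPM in SPF and 159, 171 and 123 CPM in germ-free libraries (log2 3.06), and its neighbour Slurp2 was 9.66-fold higher. Defb6, a beta-defensin, was 1.62, 2.26 and 0.888 CPM in SPF and 20.8, 22.5 and 18.2 CPM in germ-free libraries (log2 3.66, SE 0.22). Fcgbp (log2 3.50), Mt4 (log2 3.16), a metallothionein of stratified epithelia, Clca3a2 (log2 2.99) and Pyy (log2 4.12) were also higher. Krt24, Defb6, Slurp1, Slurp2, Alox12e and Mt4 all had ethanol means closer to the germ-free than to the SPF MC903 mean.

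Of the 12 largest differences on the higher side, 2, Gm28042 and Ugt1a6b, lie in loci where another gene model differed in the opposite direction, and how reads were divided between the models was not tested. Gm28042 was 0.275 to 0.559 CPM in SPF and 18.2 to 32.2 CPM in germ-free libraries, but it overlaps Pla2g4b. The sum of their counts was 1118 to 1828 in SPF and 1045 to 1131 in germ-free libraries. Ugt1a6b was 6.56 to 9.29 CPM in SPF and 69.4 to 87.1 CPM in germ-free libraries, and Ugt1a6a of the same locus was 29.4 to 37.1 and 4.5 to 7.34 CPM, in the opposite direction. Their summed counts were 1352 to 1680 in SPF and 2679 to 3397 in germ-free libraries.

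On the lower side, Ptgs2, the inducible cyclooxygenase, was 112, 133 and 193 CPM in SPF and 15.4, 19.4 and 15.7 CPM in germ-free libraries (log2 -3.11, SE 0.19, adjusted p = 6e-07). With ethanol it averaged 0.366 and 0.345 CPM, so both MC903 groups were above both ethanol groups, and the germ-free MC903 level was 8.65-fold below the SPF one. Akr1d1, a steroid reductase, was 163, 179 and 246 CPM in SPF and 18.4, 20.2 and 26.5 CPM in germ-free libraries (log2 -3.17). Tcf12, a helix-loop-helix transcription factor, was 50.1, 48.9 and 59.4 CPM in SPF and 1.82, 3.36 and 2.26 CPM in germ-free libraries (log2 -4.41, SE 0.17), and its ethanol means were 103 and 75.6 CPM. Cul5 (log2 -2.91), Usp40 (log2 -3.30), Vps39 (log2 -2.67), Spink7 (log2 -2.92), Nppc (log2 -2.50), Adap2 (log2 -2.42) and Erv3 (log2 -2.35) made up the 12 largest differences on the lower side with Ugt1a6a and Akap2. Vps39 was uneven in SPF libraries, at 45.8, 46 and 13.3 CPM. The table holds 1 estimate per gene, so for Tcf12, Cul5, Usp40, Vps39 and Akap2 it was not tested whether reads were assigned to another gene model or transcript. Akap2 had no count in any germ-free MC903 library and 16.2 to 18.8 CPM in SPF libraries, at least 199.5-fold lower taking 3 counts in a library as the limit, yet it averaged 17.4 CPM in germ-free ethanol skin. Usp40 overlaps Dgkd, and Akap2 was not matched in RefSeq.

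Among EGF receptor, immediate early and hypoxia genes, more were lower than higher in germ-free skin, and many were not called. Of 12 EGF receptor ligands and receptors, which drive keratinocyte migration and repair, 7 were lower and 1 higher, with a median of -0.67. Areg was 71, 122 and 93.9 CPM in SPF and 29.4, 29.5 and 46.2 CPM in germ-free libraries (log2 -1.45, SE 0.27), and Epgn was 113, 144 and 183 CPM against 54.3, 55.8 and 63.9 CPM (log2 -1.34). Fosl1, an AP-1 subunit of wounded epidermis, was 15.5, 21.6 and 19.5 CPM in SPF and 4.97, 2.97 and 5.5 CPM in germ-free libraries (log2 -2.07, SE 0.26). Fosl1 overlaps Ccdc85b, which went the other way, with summed counts of 4714 in SPF and 7852 in germ-free MC903 skin. The split of reads between these gene models was not tested. Among 18 immediate early genes, 8 were lower and 2 higher, and 5 were lower without SPF library 2 or germ-free library 1 or 5. Hif1a, the hypoxia-inducible factor, was 227, 253 and 356 CPM in SPF and 71.8, 86.5 and 84 CPM in germ-free libraries (log2 -1.78, SE 0.14, adjusted p = 3.3e-06). Its germ-free MC903 level lay near the ethanol means of 78.8 and 66.1 CPM. Of 19 hypoxia and glycolysis genes, 10 were lower and 1 higher, including Vegfa, the vascular growth factor (log2 -0.84), Gapdh (log2 -0.80) and Slc2a1, a glucose transporter (log2 -0.77).

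NRF2 target and antioxidant genes were lower in 12 and higher in 3 of 16 tested, with a median of -0.74. Srxn1, sulfiredoxin, was 341, 460 and 397 CPM in SPF and 130, 131 and 144 CPM in germ-free libraries (log2 -1.56, SE 0.10, adjusted p = 9.1e-07). Gsta4, a glutathione transferase, was 322, 233 and 261 CPM in SPF and 91.8, 96.8 and 94.6 CPM in germ-free libraries (log2 -1.53). Txnrd1, thioredoxin reductase, was 341, 290 and 351 CPM in SPF and 208, 179 and 176 CPM in germ-free libraries (log2 -0.80). G6pdx, which supplies reducing power, was 354 to 387 CPM in SPF and 227 to 235 CPM in germ-free libraries (log2 -0.67), and Gclm, of glutathione synthesis, was 21.9 to 25.8 and 17 to 19.2 CPM (log2 -0.42). The windows of Txnrd1, G6pdx and Gclm are shown above, and that of Srxn1 held no match. For 10 of the 16 genes the MC903 difference was significantly lower than the ethanol difference, beside 9.26% of all genes. For 0 of the 16 was it higher by edgeR, DESeq2 or limma voom, against 1 at an unadjusted p under 0.05 in edgeR. Prdx1 (log2 0.39), whose window holds a match too, and Sod2 (log2 0.37) were among the 3 that were higher.

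Interferon-stimulated genes were higher in germ-free skin. Of 30 tested, 25 were higher and none lower, with a median of 1.28. In 24 of them the groups did not overlap, beside 25.4% of all genes. At an unadjusted p under 0.05 edgeR also placed 26 higher and 0 lower, DESeq2 called 25 and 0, and limma voom 24 and 0. Their levels were low. Isg15, a ubiquitin-like antiviral protein, was 1.45, 1.52 and 1.38 CPM in SPF and 6.36, 5.28 and 5.82 CPM in germ-free libraries (log2 2.0, SE 0.33, adjusted p = 0.00044). Ifit1, an antiviral RNA-binding protein, was 1.02, 0.669 and 0.79 CPM in SPF and 3.43, 3.89 and 3.5 CPM in germ-free libraries (log2 2.12). Cxcl10, a chemokine for activated T cells, was 0.549, 0.334 and 0.197 CPM in SPF and 2.53, 2.11 and 2.89 CPM in germ-free libraries (log2 2.76, SE 0.35). Oas3, an RNA sensor enzyme, was 0.574 to 0.757 CPM in SPF and 2.03 to 2.29 CPM in germ-free libraries (log2 1.67). With ethanol 15 of the 30 were higher in germ-free skin and none lower, beside 11.6% of all genes. For 3 of 30 the MC903 difference was significantly larger, beside 7.75% of all genes. Members of the Oas and Ifit families have close copies, and their split of reads is uncertain.

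Genes induced by interferon gamma moved with them: 18 of 23 GTPases and class I processing genes were higher and none lower by edgeR, DESeq2 or limma voom, nor at an unadjusted p under 0.05 in edgeR, with a median of 0.92. With ethanol 14 of the 23 were higher and 0 lower by edgeR, beside 11.6% of all genes, while limma voom called 1 lower. For 6 of the 23 the MC903 difference was significantly larger, beside 7.75% of all genes. Ifng itself had 0 counts in SPF and germ-free skin under either treatment. Tap1, a peptide transporter, was 16.8, 18.9 and 17.2 CPM in SPF and 45.9, 37.8 and 43.5 CPM in germ-free libraries (log2 1.27, SE 0.09, adjusted p = 1.4e-06). B2m, the class I light chain, was 67.7 to 83.5 CPM in SPF and 161 to 175 CPM in germ-free libraries (log2 1.17). Of 13 class II presentation genes, 8 were higher and none lower, and H2-DMa, a peptide exchange factor, was 17.2, 20.4 and 16.7 CPM in SPF and 49.8, 43.7 and 45.4 CPM in germ-free libraries (log2 1.36). The summed FPKM of the class II list was 720 to 785.3 in SPF and 1393 to 1424 in germ-free MC903 libraries. In ethanol libraries it was 1001 to 1253 and 1502 to 1858. Ethanol skin also had 8 of these 13 genes higher and 0 lower in germ-free mice, beside 11.6% of all genes. The MC903 difference was significantly larger for 1 of the 13, H2-DMa, beside 7.75% of all genes. Of 20 chemokines for monocytes, eosinophils and T cells, 9 were higher and 1 lower, among them the type 2 chemokines Ccl17 (log2 1.85), Ccl24 (log2 1.76) and Ccl22 (log2 1.23). With ethanol 8 of the 20 were higher, beside 11.6% of all genes, and 6 of these 8 were among the 9 higher under MC903.

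T cell markers and Skint family genes, where called, were higher in germ-free MC903 skin. Of 20 T cell markers, 9 were higher and none lower, with a median of 0.57, and the summed FPKM of the list was 71 to 81.5 in SPF and 135 to 145 in germ-free libraries. Cd3e was 2.57, 2.78 and 2.07 CPM in SPF and 6.42, 5.86 and 5.47 CPM in germ-free libraries (log2 1.25, SE 0.18), and Cd3g was 2.34 to 2.57 and 5.37 to 8.62 CPM (log2 1.48). Cd4 was not called (log2 0.19). The Skint genes, expressed in skin and thymus, were higher in 9 of 11 and lower in none. Of this family, Skint1 is the member known to select epidermal gamma delta T cells, and it was among the 9. Skint9 was 11.5, 11.8 and 11.8 CPM in SPF and 53.1, 50.4 and 50.1 CPM in germ-free libraries (log2 2.13, SE 0.15), and Skint4 was 0.974, 0.617 and 1.48 CPM against 6.39, 6.59 and 6.02 CPM (log2 2.66). With ethanol 0 Skint genes were called by edgeR, against 2 at an unadjusted p under 0.05 and 1 each by DESeq2 and limma voom, and for 8 of the 11 the MC903 difference was the larger, beside 7.75% of all genes. Ethanol libraries held more Skint RNA than either MC903 group, with a summed FPKM of 128 to 170, against 21.9 to 25.9 in SPF and 60 to 62.6 in germ-free MC903 libraries.

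Other leukocyte marker lists held calls in both directions. Their counts were mostly near the shares of all genes, 20.8% higher and 20.9% lower, and are not read as a result about the cell types. Cd207, langerin of Langerhans cells, was 10.7, 8.59 and 8.59 CPM in SPF and 23.8, 20.7 and 19.3 CPM in germ-free libraries (log2 1.20, SE 0.16). Of 16 dendritic and Langerhans markers, 5 were higher and 2 lower, with 3 higher when SPF library 1 or 3 or germ-free library 1 or 4 was left out. The higher ones were Cd207, Itgax, Itgae, Batf3 and Cd209a, and the lower ones were Fscn1 and Cd24a. Arg1, arginase of alternatively activated macrophages and keratinocytes, was 23.3, 24.1 and 33.9 CPM in SPF and 11.1, 7.64 and 9.48 CPM in germ-free libraries (log2 -1.52, SE 0.19). Among 23 macrophage and monocyte markers 6 were higher and 4 lower. The higher ones were Ly6c2, Mgl2, Clec10a, C1qa, C1qb and C1qc, and Lyve1, Itgam and Msr1 were lower with Arg1. Among 16 mast cell and basophil markers 3 were called each way, or 3 in all without germ-free library 1, 4 or 5. With the length trend removed 1 of these 16 was higher and 5 were lower. Mcpt8, a basophil protease, was 1.59 to 3.06 CPM in SPF and 3.01 to 5.59 CPM in germ-free libraries and was not called (log2 0.86, SE 0.34, adjusted p = 0.06). Of 12 neutrophil markers, 2 were higher and 1 lower, while S100a8 (log2 0.71, adjusted p = 0.079) and S100a9 (log2 0.59, adjusted p = 0.14) were not called, and germ-free library 4 was the highest for both. Ly6g had 0 counts in SPF and 3 in germ-free MC903 skin.

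Antimicrobial and IL-1 family genes showed no common direction. Of 20 antimicrobial genes, 3 were higher and 5 lower, and with the length trend removed 3 were higher and 11 lower. Leaving out SPF library 3 or germ-free library 1 or 5 left 3 lower. Defb1, a constitutive beta-defensin, was 223, 245 and 264 CPM in SPF and 83.1, 96.8 and 88.3 CPM in germ-free libraries (log2 -1.45, SE 0.09, adjusted p = 4.6e-07), opposite to Defb6. The inducible Defb4 (log2 -0.08, adjusted p = 0.82) and Defb14 (log2 -0.20, adjusted p = 0.57) overlapped between the groups. Without germ-free library 5 these 2 had log2 differences of 0.04 and 0.01, and without germ-free library 4 Defb14 was called lower (log2 -0.62, adjusted p = 0.018). In the IL-1 and IL-36 family, 4 of 15 genes were higher and 6 lower. Il1f8, which encodes IL-36 beta, was 43.2, 28 and 38 CPM in SPF and 13.5, 10.8 and 10.9 CPM in germ-free libraries (log2 -1.64, SE 0.16), and its receptor gene Il1rl2 was 26.7, 16.6 and 26.6 CPM against 7.52, 8.39 and 8.11 CPM (log2 -1.54). Il1a was 27.4, 24.1 and 40.2 CPM in SPF and 24.2, 22.4 and 19.8 CPM in germ-free libraries, overlapping between groups (log2 -0.46, SE 0.17, adjusted p = 0.048), and it was not called without SPF library 3 (log2 -0.22, adjusted p = 0.25) or in 13 other alternatives. Il1b was not called (log2 -0.23, adjusted p = 0.57). Of 29 microbial sensors and adaptors, 10 were higher and 1 lower, among them Pycard, the inflammasome adaptor (log2 1.3), and Nod1 (log2 1.0). Il17a had 0 and 2 counts, and Reg3g 3 and 10, in SPF and germ-free MC903 skin.

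**Figure D3:**
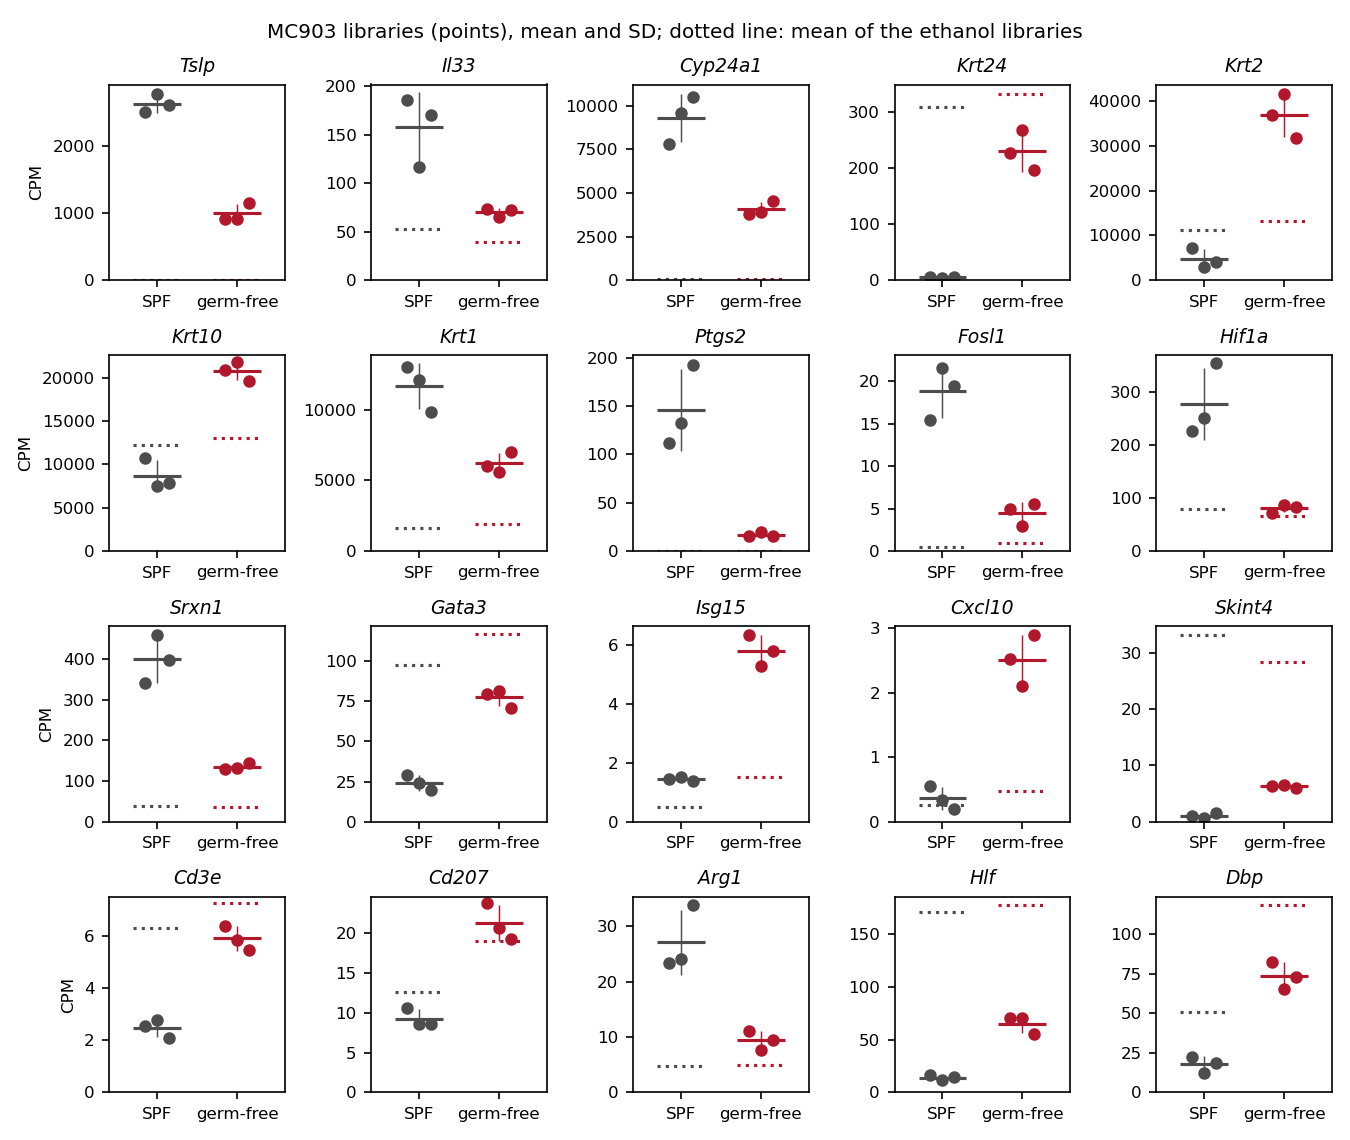
CPM of 20 genes in each MC903 library (points), with the mean (solid line) and SD (vertical line) of 3 libraries, and the mean of the ethanol libraries of the same housing (dotted line). Each y axis starts at 0; Tslp and Hif1a lie lower, and Krt24, Isg15 and Hlf higher, in all germ-free than in all SPF MC903 libraries.

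Genes of the circadian clock also differed. Of 18 tested, 12 were higher and 2 lower, with a median of 0.67. Hlf, a clock-output transcription factor, was 16.2, 11.4 and 14.6 CPM in SPF and 70.3, 70.2 and 55.2 CPM in germ-free libraries (log2 2.21, SE 0.13, adjusted p = 3.7e-07). Dbp, another output factor, was 22.6, 12.4 and 18.6 CPM in SPF and 82.6, 65.6 and 72.7 CPM in germ-free libraries (log2 2.04, SE 0.23). Dbp overlaps Sphk2, which went the other way, with summed counts of 7177 in SPF and 2092 in germ-free MC903 skin. How reads were divided between these gene models was not tested. Per1, a repressor of the clock, was 72.2, 61.8 and 55.6 CPM in SPF and 132, 147 and 106 CPM in germ-free libraries (log2 1.02), and Ciart (log2 1.31) and Tef (log2 0.75) were higher. Cry1, another repressor, whose promoter window holds an E-box as those of Per1, Ciart and Tef do, was 28.5 to 34.4 CPM in SPF and 11.9 to 16.7 CPM in germ-free libraries (log2 -1.14). Arntl, the activator, was 17.5 to 20.7 and 14.8 to 16.5 CPM (log2 -0.33, SE 0.11, adjusted p = 0.03). It was not called without SPF library 2 or 3 or germ-free library 1 or 5, with adjusted p of 0.078 to 0.098. The time of day at which ears were taken is not given, and its part was not tested.

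Skeletal muscle genes were higher in 18 of 22 and lower in none under MC903. The same 18 of 22 count was seen with ethanol, beside 11.6% of all genes. For none of the 22 did the 2 differences differ at an adjusted p under 0.05 in edgeR, beside 17% of all genes. The count was 2 at an unadjusted p under 0.05, 1 by DESeq2 and 0 by limma voom. Their summed FPKM was 853 to 880 in SPF and 1347 to 1363 in germ-free MC903 libraries, and 1718 to 1960 and 2611 to 2776 with ethanol. Hair follicle and hair shaft genes were higher in 12 of 31 and lower in 3, and among them Krt84 was 348, 35.8 and 34.7 CPM in SPF and 754, 620 and 437 CPM in germ-free libraries, with SPF library 1 well above the other two. Without SPF library 3 the higher count was 5 of 31, and without germ-free library 4 it was 6; Krt84 itself (log2 2.11, adjusted p = 0.03) was not called without SPF library 2 or 3 or germ-free library 1 or 4, with adjusted p of 0.055 to 0.08. Without SPF library 1, the high one, its log2 difference was 4.10 (adjusted p = 4e-06). Of 15 Schwann cell and nerve genes 1 was higher and 4 lower, and of 17 endothelial genes 1 and 4. For the class II, T cell, Skint and muscle lists under MC903, 0 members were lower by edgeR, by DESeq2, by limma voom or at an unadjusted p under 0.05 in edgeR, and the same held for interferon-stimulated genes with ethanol. The part of cell makeup in the lists above was not tested.

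The plot of the lists orders them by median. Proliferation genes showed little shift, with 7 of 30 higher and 3 lower. Leaving out SPF library 2 or 3, or germ-free library 1 or 5, brought the higher count to between 3 and 4. Mki67, a marker of dividing cells, was 167, 133 and 132 CPM in SPF and 191, 196 and 193 CPM in germ-free libraries (log2 0.42, SE 0.13, adjusted p = 0.023). That call was lost without SPF library 2 or 3 or germ-free library 4 or 5. Among 19 retinoid genes, 6 were higher and 6 lower, with Lrat, which esterifies retinol, 2.5-fold lower. Of 14 itch mediators and channels, 6 were lower and 1 higher, and Trpv3, a warmth channel of keratinocytes, was 9.26, 4.45 and 11.1 CPM in SPF and 1.76, 1.33 and 1.86 CPM in germ-free libraries (log2 -2.32, SE 0.28). Of 10 aryl hydrocarbon receptor genes 3 were higher and 2 lower, and Cyp1a1 was not called (log2 0.35, adjusted p = 0.088).

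**Figure D4:**
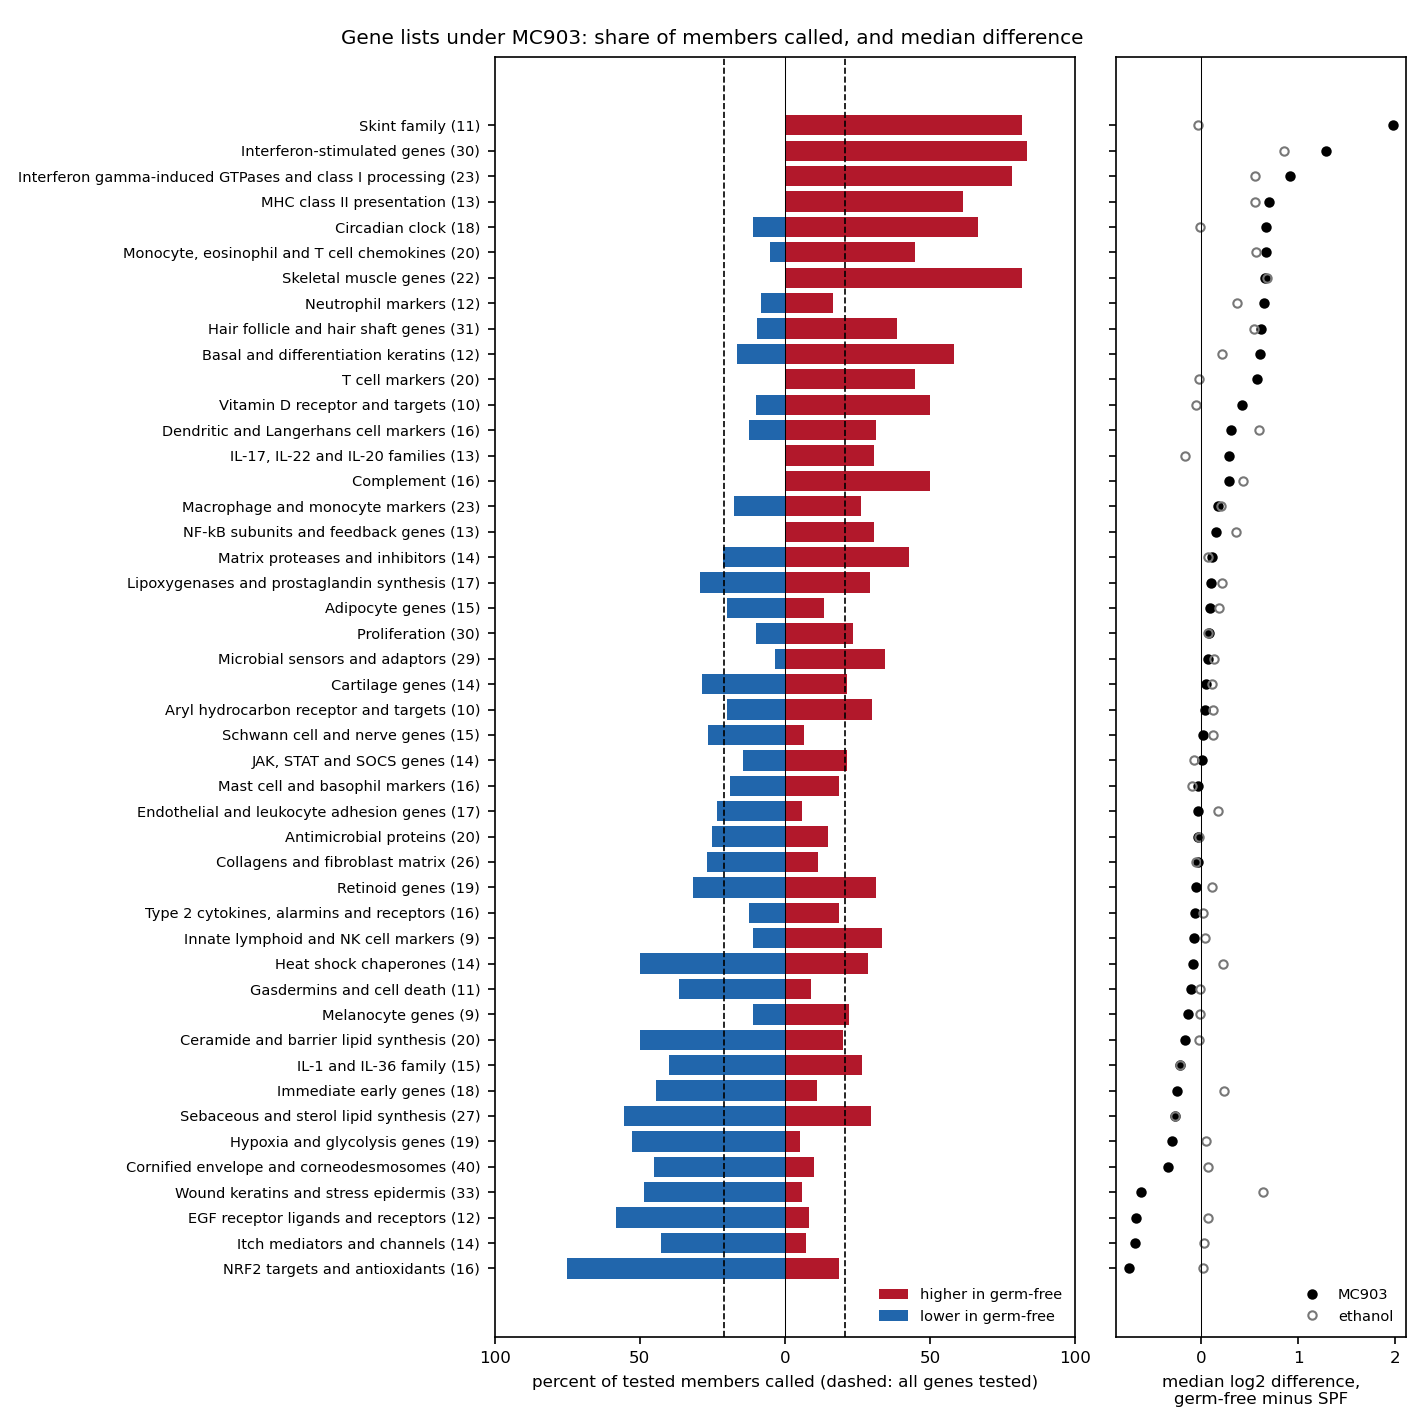
For lists with at least 8 genes tested (number in brackets), bars give the percent of members called higher (red) or lower (blue) in germ-free MC903 skin, dashed lines mark 20.8% and 20.9% of all genes, and points give the median log2 difference with MC903 (filled) and ethanol (open). Skint and interferon-stimulated genes are at the top and NRF2 targets at the bottom.

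Finally, the housing difference was set beside the one in ethanol skin, where 3616 genes were called (22%), 1914 higher (11.6%) and 1702 lower (10.3%). That count was 1475 without germ-free ethanol library 4, 2354 and 2333 without SPF ethanol library 2 and 3, and 2143 with the length trend removed. With library totals in place of TMM scaling, 1420 were higher and 2218 lower. Higher under both treatments were 1118 genes, 32.6% of the MC903 and 58.4% of the ethanol genes on that side. Lower under both were 942 genes, 27.4% and 55.3%. Opposite calls were made for 55 and 119 genes. The difference itself changed with treatment for 2800 genes (17%), being larger toward germ-free for 1276 (7.75%) and toward SPF for 1524 (9.26%); with library totals these were 1656 and 1151. Among genes called higher under MC903, 1027 had an MC903 difference significantly above that with ethanol, and among genes called lower 1279 had one significantly below it. Krt24 is such a gene, with a log2 difference of 0.10 with ethanol and 5.54 with MC903.

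**Figure D5:**
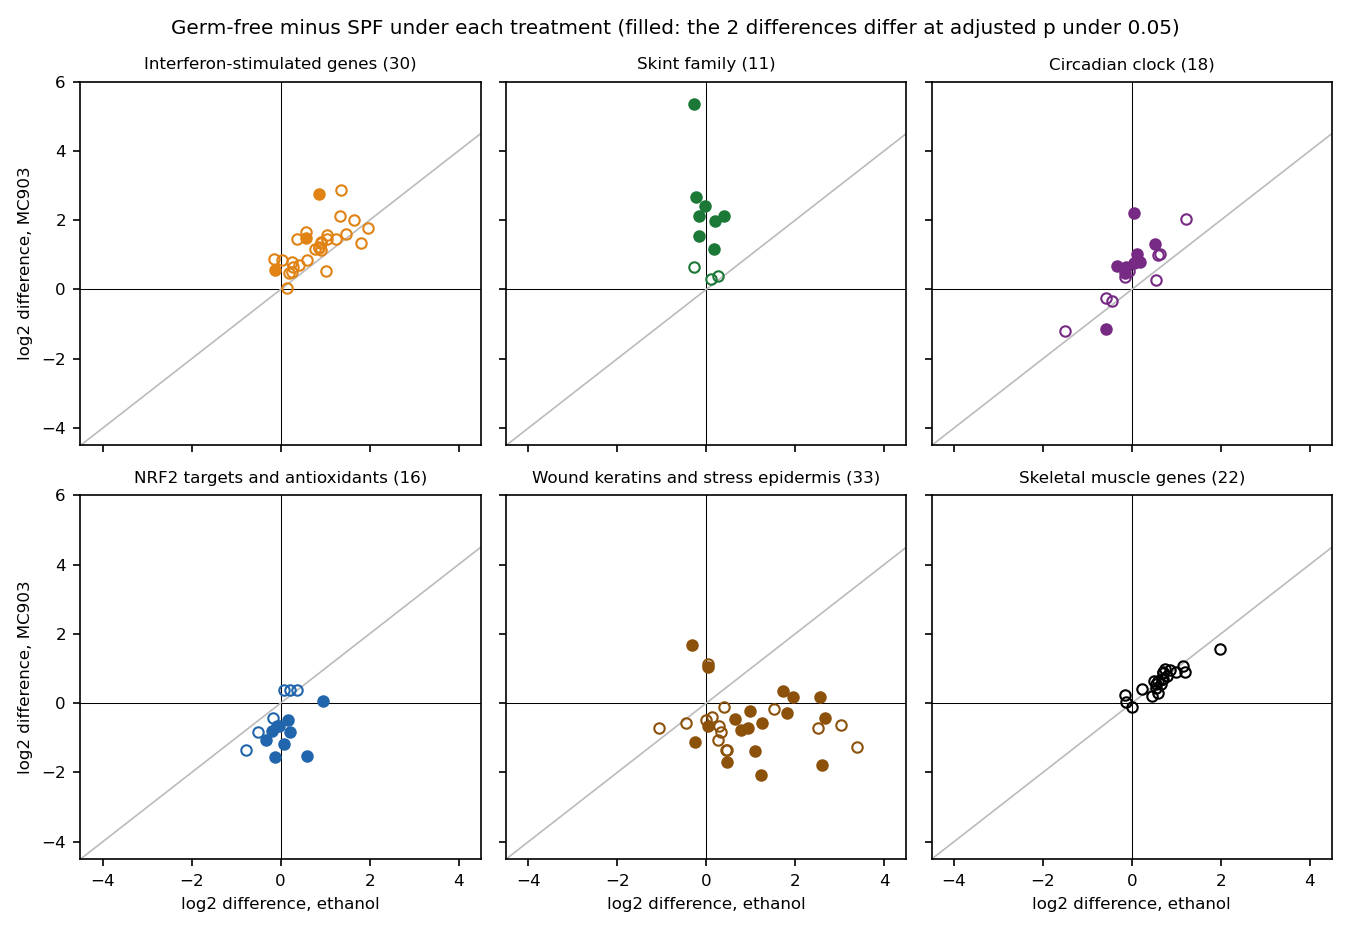
Log2 difference, germ-free minus SPF, with ethanol (x axis) and MC903 (y axis) for members of 6 lists, with the number of genes in brackets and the grey line marking equal differences. Filled points are genes whose 2 differences differ at an adjusted p under 0.05: 8 of 11 Skint genes and none of 22 skeletal muscle genes.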

How the data were processed

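RNA from ear skin was sequenced on 12 libraries (TruSeq RNA Sample Prep Kit v2, HiSeq4000, per the labels' protocols). The authors deposited estimated counts, in whole numbers, and FPKM per gene, made with tools that the submitters' processing notes list as StringTie 1.3.4d, HISAT2 2.1.0, Trimmomatic and bcl2fastq 2.20.0, on mm10. Whether strand was used is not given in the sources used here. Estimated counts were tested in R 4.3.3 with edgeR 4.0.16 (TMM scaling, filterByExpr with a minimum of 10 counts and a total of 15, 1 coefficient per group, all 12 libraries in 1 fit, Benjamini-Hochberg adjustment). FPKM, as deposited by the authors, served for list sums and tissue markers only. Genes were named by a rule: the 12 largest differences each way among called genes with a mean CPM of at least 10, groups apart and at most a 4-fold spread in a group, up to 6 called members of each of 51 lists, and a set of genes known from the model. The members and lists were chosen with earlier results of these data known, so no list is independent evidence. Gene positions and older symbols were taken from RefSeq (24462 IDs matched); unmatched genes were tested all the same, without a position. The scripts were tested on simulated data. Alternatives used DESeq2 1.42.0, limma 3.58.1, other scalings and filters, a length correction, and each library left out.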

Additional observations from a re-analysis of the deposited data

Results flagged for a closer look

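The result looked at again here is the housing difference that itself differed between treatments, by the interaction term of the edgeR fit, which was called for 2800 genes. Values below are the MC903 difference minus the ethanol difference on the log2 scale, each with an adjusted p under 0.05, for genes named above. No explanation was tested.

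In the epidermis the value was 5.44 for Krt24, 2.73 for Krt2, 1.16 for Krt10 and 1.01 for Nod1, and it was 3.57 for Mt4, 3.38 for Defb6, 3.2 for Alox12e, 3.06 for Slurp2, 2.88 for Fcgbp, 2.85 for Slurp1, 2.35 for Clca3a2 and 2 for Pyy. Negative values were -2.48 for Krt6b, -2.16 for Krt6a, -2.11 for Krt16, -1.32 for Krt80, -1.1 for Krt1 and -1.09 for Krt17. Krt16 shows the need for the direct test, since its MC903 difference was not called while its ethanol difference was. For envelope, barrier and defence genes they were -1.85 for Tgm3, -1.29 for Rptn, -1.15 for Spink5, -1.14 for Defb1, -0.85 for Klk8, -0.8 for Abca12 and -0.77 for Ivl.

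Alarmin, growth factor and stress genes had -1.42 for Tslp, -0.76 for Il33, -1.92 for Areg, -1.13 for Epgn, -3.29 for Fosl1, -1.53 for Hif1a, -0.78 for Vegfa, -0.99 for Gapdh, -0.65 for Slc2a1 and -3.03 for Ptgs2. Antioxidant genes had -2.12 for Gsta4, -1.44 for Srxn1, -0.61 for Txnrd1 and -0.6 for G6pdx. Other genes lower in germ-free MC903 skin had -0.73 for Il1f8, -1.1 for Il1rl2, -1.21 for Trpv3, -2.31 for Lrat and -1.55 for Arg1. Genes among the largest differences on the lower side had -3.97 for Tcf12, -3.54 for Nppc, -2.79 for Cul5, -2.74 for Usp40, -2.44 for Vps39, -2.37 for Erv3, -1.95 for Akr1d1 and -1.69 for Adap2. For Tcf12, Cul5, Usp40, Vps39 and Fosl1 the assignment of reads to gene models was not tested, as stated above. Vps39 was also uneven in the SPF MC903 libraries. The fitted value of -12.24 for Akap2 depends on the prior count, since that gene was at 0 in the germ-free MC903 libraries, and is no bound. Gm28042 had 5.78 and Ugt1a6a -1.47, with the limits on their loci given above.

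Immune and clock genes had 1.9 for Cxcl10, 0.71 for Tap1, 0.62 for B2m, 0.71 for H2-DMa, 1.42 for Gata3, 0.81 for Pycard, 1.37 for Cd3g, 1.05 for Cd3e, 2.88 for Skint4 and 1.72 for Skint9, and 2.16 for Hlf, 0.89 for Per1, 0.78 for Ciart, 0.71 for Tef and -0.56 for Cry1. Mki67 had 0.68.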

How the results depend on the processing

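Of 103 genes whose MC903 difference is reported, 92 were called, and 87 of these were called in every alternative that gave a value. The 5 that were lost in at least 1 alternative were Arntl, Il1a, Krt84, Mki67 and Sprr1b. Of 11 genes not called, 7 were called in at least 1 alternative, among them Lor and S100a8. Among these 103 the sign turned for Defb14 and Defb4, without germ-free MC903 library 5; over the left-out libraries Defb14 ran from -0.623 to 0.0148 and Defb4 from -0.244 to 0.041. The cause was not tested. The count of genes called under MC903 stayed between 5652 and 7051 over all alternatives, and leaving out a library gave 5652 to 6784. With ethanol it was 1475 to 3981 when a library was left out, and 2143 with the length trend removed. The count of genes whose difference changed with treatment was 2129 to 2765 when a library was left out. No paired analysis across housings was made, since germ-free and SPF libraries come from different animals. They share number 1 only, and that shared number was not read as a pair. Within a housing, ethanol and MC903 libraries of the same number had deviations from their group means that correlated at -0.0225 to 0.14. For SPF numbers 2 and 3 the values were 0.0674 and 0.14, against at most 0.00412 and -0.0112 with other numbers. Germ-free number 1 was also above its other-number values, number 4 was below them, and the rest lay between. These correlations cannot settle whether libraries of the same number share an animal. The main fit did not read the numbers as pairs. With housing and library number together as a replicate block, 2303 genes were called for the change with treatment, in place of 2800. With the same block taken as random in limma voom, 6596 were called under MC903. Library totals moved the share of higher calls from 52.9% to 39% with ethanol and from 45.6% to 59% for the change with treatment. The list fits with the length trend removed were chosen after seeing the data, and they gave 438 list genes called. Levels under 1 CPM rest on few reads, and near-identical gene copies limit single members of their families.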

Other observations

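Nnt, the mitochondrial transhydrogenase, was uneven among the germ-free MC903 libraries, at 17.1, 4.53 and 5.41 CPM in libraries 1, 4 and 5, against 14 to 14.8 CPM in the SPF MC903 libraries. It was not called (log2 -0.67, adjusted p = 0.16), and it was chosen after its values were seen. In the germ-free ethanol libraries 1, 4 and 5 Nnt was even, at 1504, 1450 and 1436 counts.

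Heat shock chaperones, which were not described above, were lower in 7 and higher in 4 of 14 under MC903, with Hsph1 lower (log2 -0.94) and Hspb1 higher (log2 1.72). Of 16 complement genes, 8 were higher by edgeR, 7 by DESeq2 and 9 by limma voom, and 0 were lower by any of these or at an unadjusted p under 0.05 in edgeR. With the length trend removed 4 were higher under MC903. Ethanol skin had 10 of the 16 higher in germ-free mice and 0 lower by edgeR, beside 11.6% of all genes. The MC903 difference was significantly lower than the ethanol difference for 2 of the 16, beside 9.26% of all genes.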
